A study of Homo sapiens with 10 samples.

Results

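The histone genes of the array data were taken as every probe set whose platform gene symbol, on its own or among others, names an H1, H2A, H2B, H3 or H4 gene or the variants H2AX, H2AJ and H3.3. Of the 25750 probe sets with deposited values, 49 met this rule, and together they name 63 genes. Of the 49, 37 carry a single symbol (32 genes) and 12 carry several, because the coding sequences of many histone genes are nearly the same. By class there were 7 probe sets for H1, 11 for H2A, 16 for H2B, 5 for H3, 6 for H4 and 4 for these variants. None of these was left out here for low signal. The authors had, however, already dropped features close to background or nearly constant, so other histone probe sets may be missing from the deposited values. Of the 49 probe sets, 33 had a mean at or above 5.10, the mean of the array medians (log2 intensity). The other 16 were below it, where arrays of this kind separate signal from background poorly.

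The cells were MDA-MB-231, a basal-like human breast cancer line. All of them carried the same reporter, stably transfected pEGFP1-Oct3/4 in which GFP is driven by the Oct4A promoter, and all had been selected with neomycin. A cell sorter separated them by GFP alone: Oct4hi BCCs (breast cancer cells) were the 5% with the most GFP, Oct4low BCCs, per the labels, the 5% with the least (the sources do not all give the same share for this subset), and Oct4med BCCs came from between these extremes. Oct4hi and Oct4low BCCs were measured on 4 arrays each and Oct4med BCCs on 2, each from 100 ng of total RNA. The labels name the arrays of a subset biological replicates, and RNA came from separate experiments per the methods, so the p-values measure the spread between such repeats of 1 transfected line. GFP stands in for promoter activity of the transfected construct, and no unsorted or reporter-free cells were analysed here.

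Histones are the proteins around which DNA is wrapped. A nucleosome holds pairs of H2A, H2B, H3 and H4, and H1 binds the linker DNA between nucleosomes. Most histone genes lie in clusters and are transcribed in S phase, and their mRNAs end in a stem-loop bound by SLBP instead of a poly(A) tail. Several H2A, H2B and H1 genes also give polyadenylated mRNAs, made outside S phase or in differentiating cells, while the variants H2AX (in part), H2AJ and H3.3 depend less on replication. The labelling used here (3′ IVT) starts from oligo(dT), so it reads tailed mRNAs far better than stem-loop ones. A level given below is that of the RNA which this labelling could reach, and in bulk samples fewer cells with a transcript and less RNA per cell cannot be told apart.

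The deposited values are log2 intensities between 2.37 and 14.46, with array medians of 5.05 to 5.14. Pearson's r across probe sets was 0.991 to 0.995 between arrays of a subset and 0.978 to 0.989 between subsets. Of 9 basal and mesenchymal markers of this line 7 were measured, and 5 (Oct4low, Oct4hi) or 6 (Oct4med) of them were at or above the median level, with ANXA1 at 12.85, 12.63 and 12.20 in Oct4low, Oct4med and Oct4hi BCCs. The VIM probe set kept in the table was below the median level in all 3 subsets (3.96, 3.75 and 4.04). Of the luminal markers 5 of 7 measured were at or above that level in each subset, with GATA3 at 7.63, 7.25 and 6.87 and PGR the lowest (3.29, 3.27 and 3.24), and their summed linear level was 466 to 515, 397 to 409 and 359 to 389. Of the erythroid markers it was 2 of 3, with HBE1 at 7.21, 7.89 and 7.95 (sums of 215 to 238, 319 to 325 and 312 to 349). Of the leukocyte markers it was 3, 2 and 3 of 5, with CORO1A at 6.71, 6.86 and 7.18 and PTPRC, which defines leukocytes, at 3.16 in Oct4med and 3.09 in Oct4hi BCCs (sums of 199 to 221, 212 to 213 and 229 to 260). The part of these markers in the histone differences was not tested. Differences between subsets were tested with limma across all 25750 probe sets and adjusted by Benjamini-Hochberg, and those with an adjusted p under 0.05 are said to have passed.

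Most H2B probe sets, and those of H2AC18/H2AC19 and H2AC6 among the H2A genes, were lower in Oct4med than in Oct4low BCCs, while no probe set of H1, H3 or H4 passed as lower. Of the 49 histone probe sets, 14 were lower in Oct4med BCCs (28.6%, against 7.35% of all probe sets) and 1 was higher (2.04%, against 1.79%). Those that fell were 10 of 16 for H2B, 3 of 11 for H2A and 1 of 4 for the variants, and none of 7 for H1, 5 for H3 or 6 for H4 (limma; at an unadjusted p under 0.05, 0, 1 and 0 were lower, and 0 of each by the methods' t-test after adjustment). The 13 H2A and H2B probe sets were lower by 1.68- to 3.49-fold, 9 of them by more than 2-fold. Of the 13, 10 end in _x_at or _s_at, which mark probes shared with other genes or transcripts. The median difference was -0.77 on the log2 scale for the H2B probe sets and -0.01 for those of H2A, beside 0.04 over all 25750. In each of the 14, both Oct4med arrays were below all 4 Oct4low arrays. This was so for 17 of the 49, and for 17.3% of all probe sets.

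**Figure D1:**
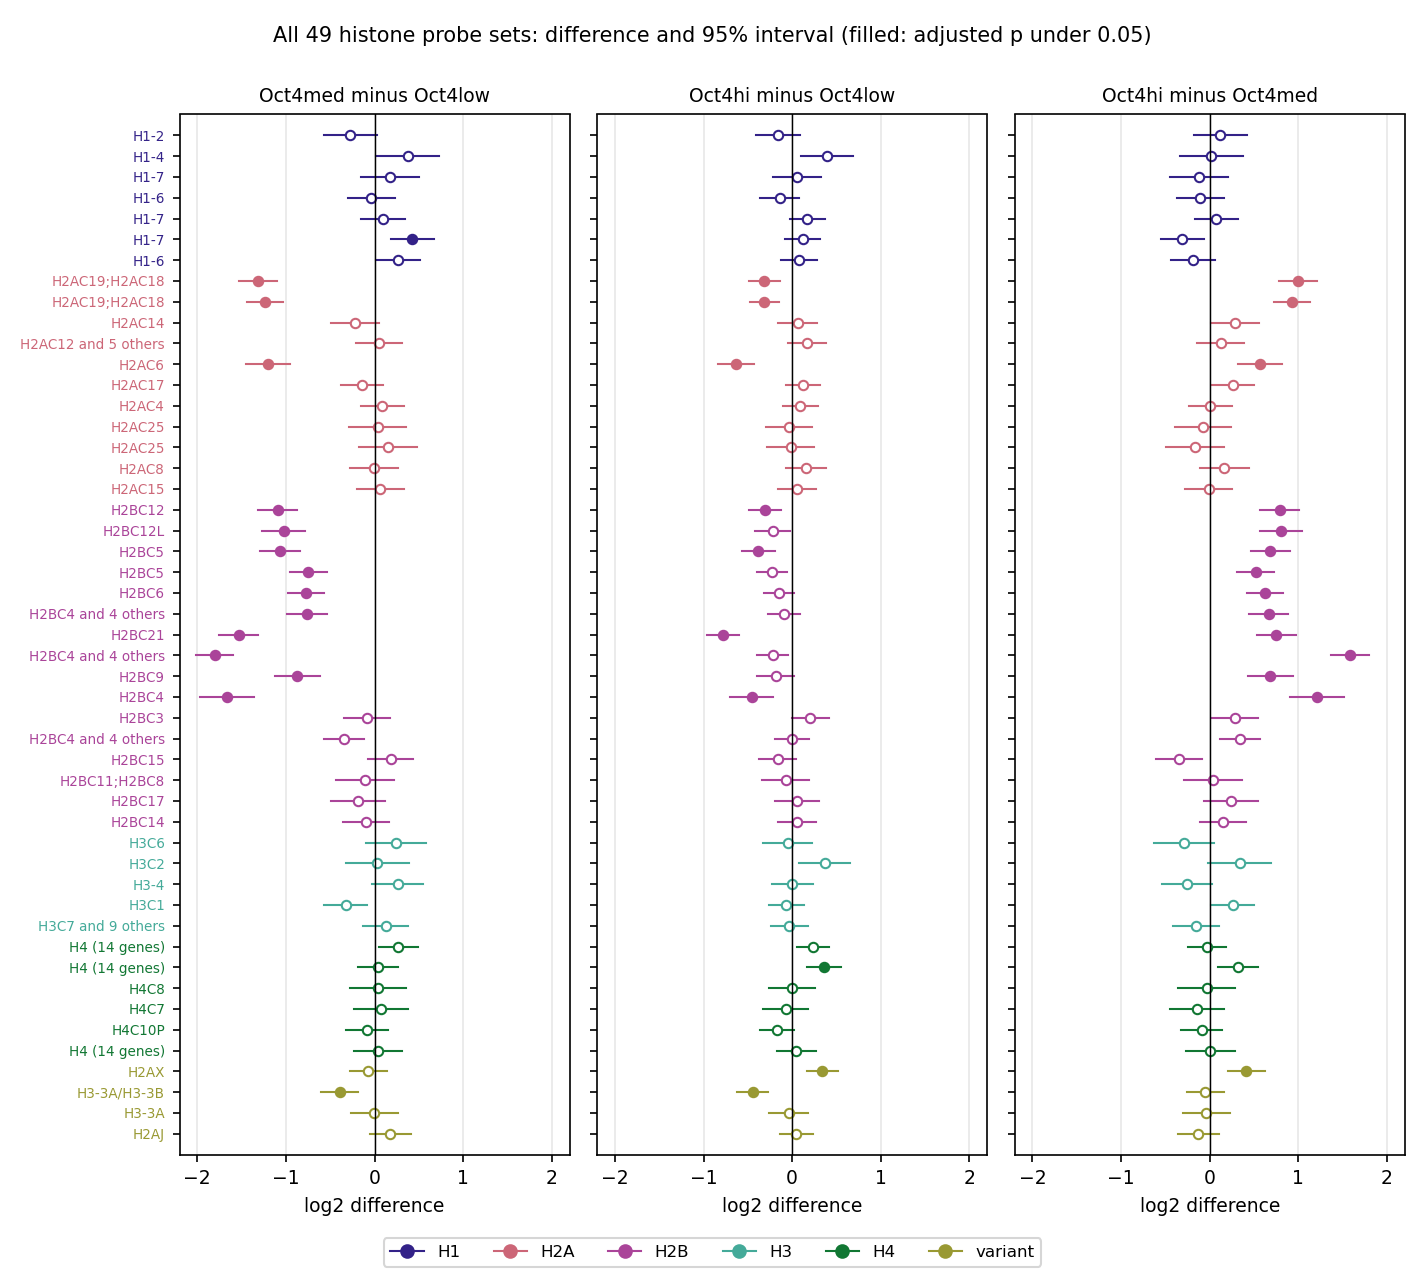
Difference between subsets (horizontal axis, log2) of all 49 histone probe sets, 1 per row and ordered by class and then by level, in the 3 comparisons. Points are the fitted differences, lines their 95% intervals, and filled points passed at an adjusted p under 0.05. The filled points of 10 H2B rows and 3 H2A rows lie to the left of 0 in Oct4med against Oct4low BCCs and to the right in Oct4hi against Oct4med BCCs, and the rows of H1, H3 and H4 lie between -0.33 and 0.43 in the former.

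Among the H2B genes, which encode the partner of H2A in the nucleosome, the fall was largest for H2BC4 and H2BC21. One probe set (214455_at) carries the symbols of H2BC4, H2BC6, H2BC7, H2BC8 and H2BC10 and was designed on the H2BC4 transcript. Its values were 7.33, 7.40, 7.25 and 7.39 in the Oct4low arrays, 5.57 and 5.50 in the Oct4med arrays, and 7.17, 7.08, 7.07 and 7.16 in the Oct4hi arrays. The Oct4med arrays lay apart at the bottom, and the Oct4hi arrays just below the Oct4low ones. The difference was -1.81 ± 0.10 (SE) for Oct4med minus Oct4low BCCs (limma, adjusted p = 1.92e-08), or 3.49-fold.

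The probe set that names H2BC4 alone (236193_at) read 6.82, 7.17, 6.96 and 6.74 in Oct4low, 5.09 and 5.43 in Oct4med and 6.43, 6.53, 6.25 and 6.65 in Oct4hi arrays. No array of 1 subset overlapped with another, in the order Oct4low, Oct4hi, Oct4med. It was 3.17-fold lower in Oct4med BCCs (-1.67 ± 0.14, limma adjusted p = 1.87e-06). For H2BC21, a cluster gene on chromosome 1 with a well known polyadenylated mRNA, the arrays gave 7.83, 8.04, 7.91 and 7.98 in Oct4low, 6.35 and 6.46 in Oct4med and 7.12, 7.18, 7.13 and 7.19 in Oct4hi BCCs. These values, too, fell into 3 separate ranges. The fall in Oct4med BCCs was 2.90-fold (-1.53 ± 0.10, limma adjusted p = 1.42e-07).

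H2BC12, H2BC5 and H2BC12L fell by about the same factor. H2BC12 was at 10.89 ± 0.09 (SD, n = 4) in Oct4low, 9.80 ± 0.02 (SD, n = 2) in Oct4med and 10.59 ± 0.07 (SD, n = 4) in Oct4hi BCCs, 2.13-fold lower in Oct4med than in Oct4low BCCs. The H2BC5 probe set 209911_x_at was at 9.22 ± 0.09, 8.16 ± 0.09 and 8.84 ± 0.07 in the same order (2.09-fold), and that of H2BC12L, a gene on chromosome 21, at 9.49 ± 0.14, 8.46 ± 0.08 and 9.27 ± 0.06 (2.04-fold). In all 3 the Oct4med arrays were below every other array. The probe sets of H2BC5 and H2BC12L (208579_x_at) end in _x_at, so other genes may add to their signal. The 4 remaining H2B probe sets that fell, named here after their values were seen, were H2BC9 (-0.87), H2BC6 (-0.77), the second H2BC5 probe set (-0.75) and 208490_x_at, which carries the same 5 symbols as 214455_at (-0.76). Of 12 H2B probe sets at or above the median level 10 fell. The other 2 were H2BC3 at -0.08 (95% interval -0.34 to 0.17) and 208523_x_at, again with those 5 symbols, at -0.35 (-0.58 to -0.12, limma adjusted p = 0.0573). The 4 dim H2B probe sets, of H2BC15, H2BC17, H2BC14 and H2BC11/H2BC8, did not pass.

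Of the H2A probe sets, those of H2AC18/H2AC19 and H2AC6 fell. H2AC18 and H2AC19 are neighbouring copies on chromosome 1 with the same symbols on both probe sets, so they cannot be told apart. Their probe set 214290_s_at read 11.83, 11.90, 11.91 and 11.97 in Oct4low, 10.58 and 10.61 in Oct4med and 11.52, 11.60, 11.55 and 11.69 in Oct4hi arrays. The 3 ranges were separate, with a fall of 2.48-fold in Oct4med BCCs (-1.31 ± 0.10, limma adjusted p = 6.36e-07). The other probe set of this pair, 218280_x_at, fell by 2.36-fold, from 10.24 ± 0.03 (SD, n = 4) to 9.0 ± 0.01 (SD, n = 2). H2AC6 gave 7.54, 7.5, 7.75 and 7.55 in Oct4low, 6.28 and 6.48 in Oct4med and 6.84, 7.06, 6.86 and 7.04 in Oct4hi arrays, again without overlap, and was 2.30-fold lower in Oct4med BCCs (-1.20 ± 0.12, limma adjusted p = 6.04e-06). H2AC14, H2AC17, H2AC4 and H2AC25, and the probe set that carries 6 symbols between H2AC11 and H2AC17, were at or above the median level and did not pass, with differences from -0.22 to 0.15.

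**Figure D2:**
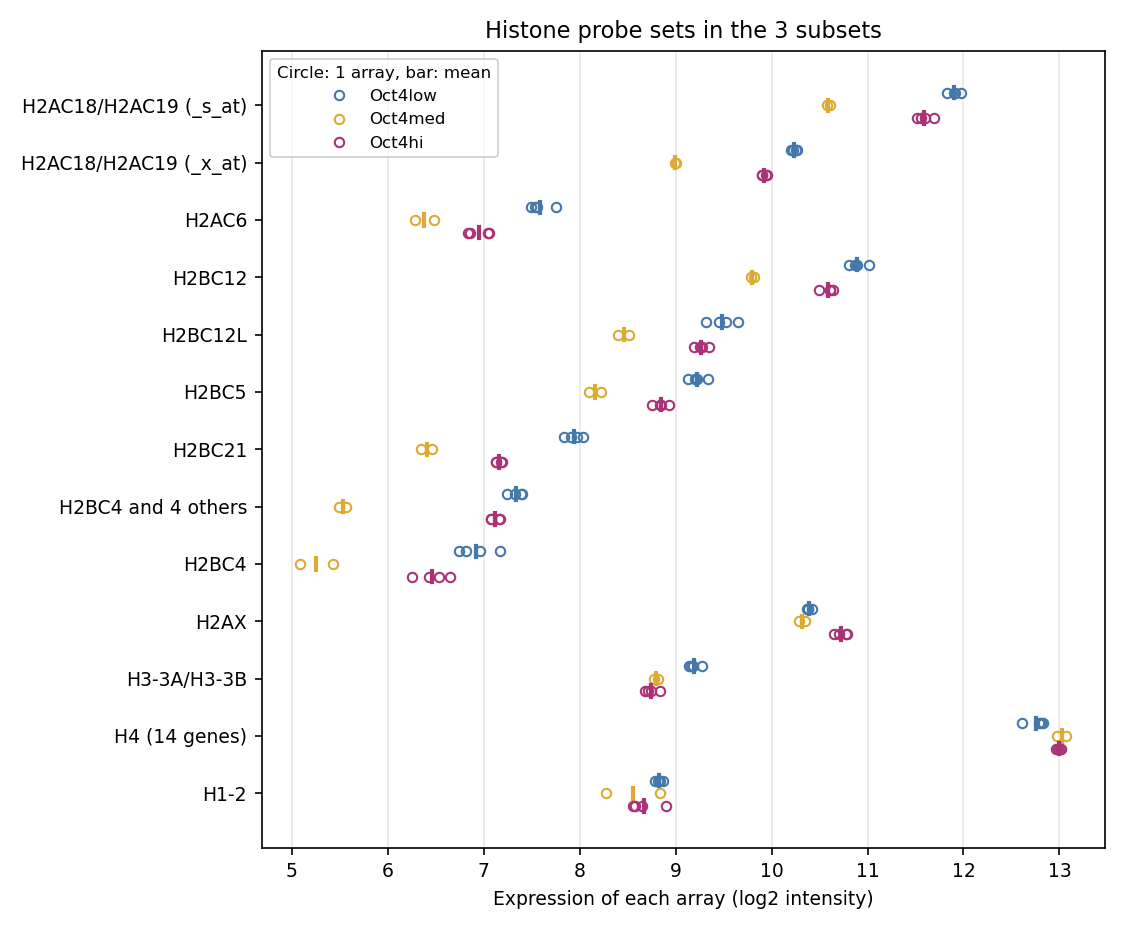
Expression of 13 histone probe sets (vertical axis) in each array (horizontal axis, log2 intensity), coloured by subset. Circles are arrays and bars are means of 4 Oct4low, 2 Oct4med and 4 Oct4hi arrays. In the 9 H2A and H2B rows both Oct4med arrays are the lowest, whereas H2AX is highest in the Oct4hi arrays and the H4 row is lowest in the Oct4low arrays.

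The sequences before the transcription starts are shown for 5 of the genes that fell, and for H2AX, which did not fall. They are the 150 bases before the start in RefSeq (GRCh38.p14), 5′ to 3′ on the gene's strand, and capitals mark matches on either strand to the octamer ATTTGCAT, known from H2B promoters and read by POU factors, to TATAAA and to CCAAT. No match overlaps another. For H2BC12 and H2BC5, which have 2 listed starts each, one is shown.
H2BC21 (chr1:149886683-149886832, minus strand): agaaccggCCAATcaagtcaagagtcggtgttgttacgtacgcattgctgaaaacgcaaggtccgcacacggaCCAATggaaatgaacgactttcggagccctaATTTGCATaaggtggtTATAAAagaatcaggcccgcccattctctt
H2BC12 (chr6:27146859-27147008, minus strand): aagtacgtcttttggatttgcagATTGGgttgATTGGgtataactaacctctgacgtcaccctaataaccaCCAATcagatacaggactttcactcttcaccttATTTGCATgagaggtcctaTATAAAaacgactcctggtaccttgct
H2BC4 (chr6:26123927-26124076, minus strand): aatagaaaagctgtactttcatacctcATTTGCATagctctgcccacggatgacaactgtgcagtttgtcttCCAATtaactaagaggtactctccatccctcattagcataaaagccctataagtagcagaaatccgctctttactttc
H2AC6 (chr6:26124022-26124171, plus strand): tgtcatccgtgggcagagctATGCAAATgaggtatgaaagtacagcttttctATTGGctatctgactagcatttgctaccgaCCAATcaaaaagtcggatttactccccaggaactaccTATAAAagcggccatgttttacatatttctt
H2BC5 (chr6:26157971-26158120, plus strand): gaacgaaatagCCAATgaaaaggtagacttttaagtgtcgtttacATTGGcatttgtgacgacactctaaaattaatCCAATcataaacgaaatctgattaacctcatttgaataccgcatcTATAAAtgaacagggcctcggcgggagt
H2AX (chr11:119095466-119095615, minus strand): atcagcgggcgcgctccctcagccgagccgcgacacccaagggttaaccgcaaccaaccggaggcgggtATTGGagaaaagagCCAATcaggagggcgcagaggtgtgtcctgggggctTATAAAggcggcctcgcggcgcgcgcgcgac

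H2BC21 and H2BC12 held the octamer 46 bases before the start, just upstream of TATAAA at 30 and 27 bases. H2BC4 and H2AC6 are transcribed away from each other, so their windows share 55 bases. The octamer at chr6:26124042-26124049 is 1 site that lies 123 bases before the H2BC4 start and, on the other strand, begins 130 bases before that of H2AC6. H2BC5 had TATAAA and 3 CCAAT matches but no octamer. H2AX had no octamer in these bases either. Over all 35116 promoter windows in the reference (from upstream of each start to just past it), 1.77% held the octamer, 11.5% TATAAA, 34.6% CCAAT and 7.26% the E-box CACGTG. Of the 63 histone genes 56 had a window, and 21 of these held the octamer, 36 TATAAA, 46 CCAAT and none CACGTG. A gene was counted where any of its windows held the match, whereas the shares over all promoters count single windows. The octamer site shared by H2BC4 and H2AC6 counts for both genes. The octamer was found for 12 of 14 H2B, 7 of 12 H2A and 1 of 9 H3 genes, for H3-3B among 4 variants, and for none of 4 H1 or 13 H4 genes. Among genes other than the variants with a window and a single-symbol probe set at or above the median level, it was found for 6 of the 7 that fell in Oct4med BCCs and for 4 of the 11 that did not pass. These 11 include the H1 and H3 genes: within H2A and H2B it was 6 of 7 that fell and 4 of 5 that did not pass. These matches describe letters in a window, and binding was not measured.

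The annotated spans of the genes differed widely. Of the 63 genes, 49 lie on chromosome 6 between 26020451 and 27893891, and 5 on chromosome 1 between 149832657 and 149886682 (GRCh38.p14). A stem-loop histone gene spans about the length of its short mRNA, whereas a longer span means that RefSeq lists transcripts which run on past it or are spliced. The span was 10757 bases for H2BC4, 13229 for H2BC5, 8566 for H2BC12 and 2224 for H2BC21, against 462 for H2BC9 and 519 for H2AC6. Of 5 genes other than the variants with a span over 2000 bases and a single-symbol probe set at or above the median level, 4 fell, the exception being H3C6 (3296 bases). Of 14 with a shorter span, 4 fell: H2AC6, H2BC6, H2BC9 and H2BC12L. These counts mix the classes. The 4 long genes that fell are all H2B genes, and among H2B genes with a shorter span only H2BC3 did not pass. The other short genes that did not pass are of H1, H2A and H3. The part of span, apart from class, was not tested. The suffixes _x_at and _s_at mark probes shared with other genes or transcripts, and they occur on both sides: among the long genes for H2BC5 and H2BC21, and among the short ones for all 4 that fell and for H2AC14 and H3C2, which did not pass. The limit of 2000 bases was set after the values were seen.

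A list of 8 histone genes known to give polyadenylated mRNAs was also counted, its genes being partly those above. Each gene is read from 1 single-symbol probe set. Of 7 measured, H2BC4, H2BC21, H2AC6, H2BC12 and H2BC5 were lower in Oct4med than in Oct4low BCCs (median -1.09, with 7.35% of all probe sets lower). All 5 were named above, so this count adds no evidence, and H1-2 and H4C8 did not pass. H4C8, at 4.82 in Oct4low and 4.86 in Oct4med BCCs, was below the median level.

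No H1 probe set, for the linker histones, passed as lower in Oct4med than in Oct4low BCCs. H1-2 was at 8.79, 8.84, 8.81 and 8.87 in Oct4low, 8.27 and 8.83 in Oct4med and 8.90, 8.65, 8.55 and 8.58 in Oct4hi arrays. One Oct4med array was thus below the Oct4low range and the other within it. The difference between Oct4med and Oct4low BCCs was -0.28 (95% interval -0.58 to 0.02, limma adjusted p = 0.246). It came to -0.56 without the second Oct4med array and passed there (limma adjusted p = 0.0349), and to 0.00 without the first, with adjusted p from 0.0349 to 0.993 over the alternatives. The 1 histone probe set that was higher in Oct4med BCCs was a dim one of H1-7, a testis-specific linker histone, named after its value was seen: 238374_at rose from 4.55 to 4.98 (0.43, limma adjusted p = 0.0264). The other H1-7 probe sets differed by 0.17 and 0.10 and did not pass. H1-4, with a mean of 6.58, differed by 0.37 (95% interval 0.02 to 0.73) and did not pass either.

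The H3 probe sets, for the partner of H4, were dim. Only those of H3C6 and H3C2 were above the median level, at means of 5.20 and 5.15 over the 10 arrays. For H3C6 the difference between Oct4med and Oct4low BCCs was 0.24 (95% interval -0.10 to 0.58). The brightest H4 probe set (205967_at) carries the symbols of 14 genes that encode the same protein and was far above the median level. It read 12.83, 12.81, 12.61 and 12.79 in Oct4low, 12.97 and 13.07 in Oct4med and 13.01, 12.97, 13.00 and 12.98 in Oct4hi arrays. The Oct4low arrays were the lowest 4, unlike for H2A and H2B, but at 0.27 (95% interval 0.05 to 0.48) for Oct4med and 0.23 (0.06 to 0.41) for Oct4hi against Oct4low BCCs the differences did not pass (limma adjusted p = 0.123 and 0.0669). Both passed with the level filter and the intensity trend, and the second also at a common median and in the methods' t-test. Adjusted p ran from 0.000153 to 0.312 for the first and from 2.21e-05 to 0.168 for the second over the alternatives. Of the 18 probe sets of H1, H3 and H4, 9 were at or above the median level. Among these 9, H3C2 (5.15), H3C6 (5.20), the H4 probe set 214516_at (5.27) and 238373_at of H1-7 (5.38) were close to it. A fall in these or in the dim ones could have gone unseen.

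**Figure D3:**
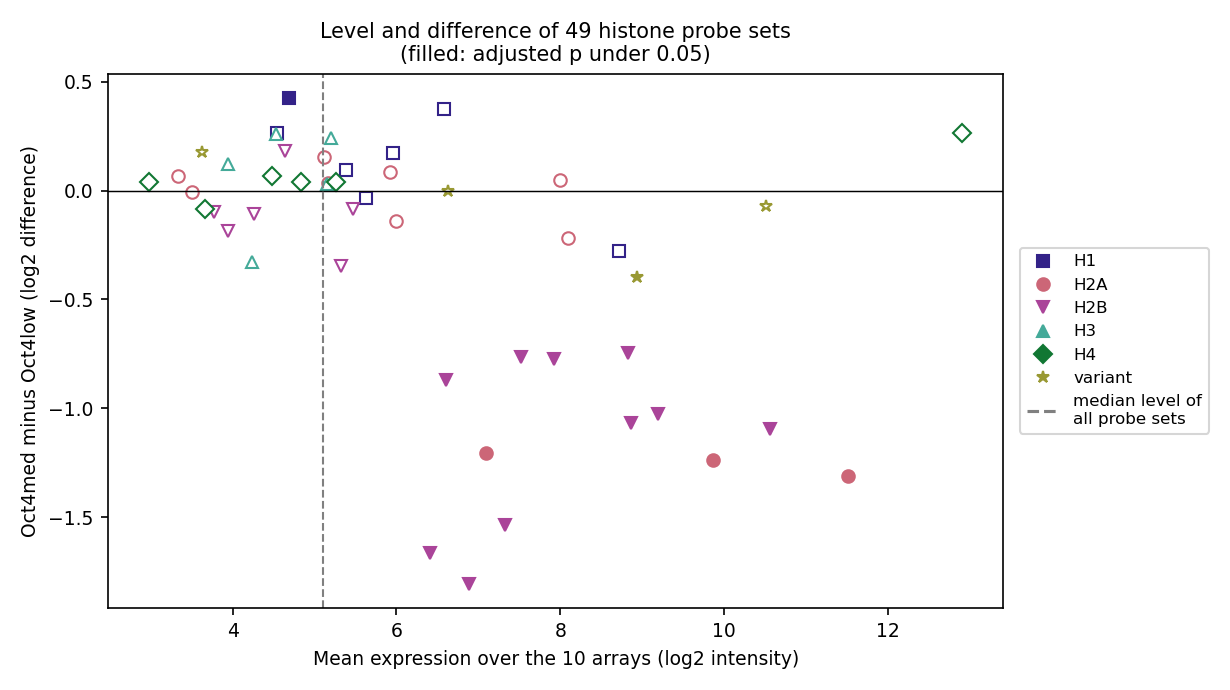
Mean expression over the 10 arrays (horizontal axis, log2 intensity) and difference between Oct4med and Oct4low BCCs (vertical axis, log2) of the 49 histone probe sets, with 1 symbol and colour per class. Filled symbols passed at an adjusted p under 0.05, and the dashed line is the median level of 5.10. All 14 lower probe sets lie to the right of the line.

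All 14 lower probe sets were at or above the median level, where 14 of 33 histone probe sets fell (42.4%) against 11.8% of all probe sets at such levels. The 5′ control for 28S ribosomal RNA, an RNA without a poly(A) tail, was lower in Oct4med BCCs too. It read 13.70, 13.58, 13.53 and 13.58 in Oct4low, 12.64 and 12.77 in Oct4med and 13.60, 13.54, 13.56 and 13.57 in Oct4hi arrays, a difference of -0.89 ± 0.10 for Oct4med minus Oct4low BCCs (limma adjusted p = 2.56e-05). The middle 28S control differed by -0.48 (limma adjusted p = 0.008), the dim 3′ one by -0.03 and the 18S control by 0.13, and these last 2 did not pass. Of 13 probe sets for small nucleolar, Cajal body and RNase P RNAs, 1 fell (SNORA21, -0.89) and 1 rose (SNORD8, 0.46), with a median of 0.07. The part of whatever moved the 28S controls in the histone differences was not tested.

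The share of higher calls over all probe sets depended on the scaling. Between Oct4med and Oct4low BCCs, 19.6% of the probe sets that passed were higher, and 35.5% after a further quantile normalization. Between Oct4hi and Oct4med BCCs it was 70%, and 54.6% after quantile normalization or 80.3% once all arrays were moved to the same median. The median difference of all probe sets stayed within 0.05 of 0 under each. The 9 H2A and H2B probe sets that fell by more than 2-fold passed in each of the 19 or 20 settings in which they were tested. Those ending in _x_at or _s_at had no test where such probe sets were removed.

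For the 13 H2A and H2B probe sets that fell, the mean of Oct4hi BCCs lay between those of the other subsets, and 7 of the 13 passed as lower than in Oct4low BCCs. This did not extend to all 27 H2A and H2B probe sets. H2AC4, H2AC8, H2AC14, H2AC17, H2BC3, H2BC14, H2BC17 and 214542_x_at, which carries 6 H2A symbols, had their highest mean in Oct4hi BCCs. H2BC15 and both probe sets of H2AC25 had their lowest mean there. None of these passed in any comparison. Against Oct4med BCCs, 14 histone probe sets were higher (28.6%, against 7.52% of all probe sets) and 0 were lower by limma (background 3.22%), with 2 lower at an unadjusted p under 0.05 and 0 by the methods' t-test after adjustment. They were 10 for H2B, 3 for H2A and H2AX. Both these comparisons use the same 2 Oct4med arrays, so their counts are not independent. The 5-symbol probe set 214455_at was 3-fold higher in Oct4hi than in Oct4med BCCs (1.59 ± 0.10, limma adjusted p = 3.91e-08), H2BC4 2.31-fold (1.21 ± 0.14), 214290_s_at of H2AC18/H2AC19 2-fold (1.0 ± 0.10) and H2BC12 1.73-fold (0.79 ± 0.10). H2BC21 differed by 0.75 ± 0.10 and H2AC6 by 0.57 ± 0.12. The H2AC6 call did not hold without the first Oct4med array or in the methods' t-test (adjusted p from 0.000171 to 0.107 over the alternatives).

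Against Oct4low BCCs, Oct4hi BCCs had 8 lower histone probe sets (16.3%, background 8.78%) and 2 higher ones (4.08%, background 8.69%). Of those at or above the median level 24.2% were lower, against 14.1% of all such probe sets. H2BC21 fell most, by 1.72-fold (-0.78 ± 0.08, limma adjusted p = 1.08e-05), followed by H2AC6 (1.55-fold, -0.63 ± 0.10) and H2BC4 (1.37-fold, -0.46 ± 0.12). H2BC5 (-0.38), both probe sets of H2AC18/H2AC19 (-0.31 each) and H2BC12 (-0.30) fell by less. The H2BC4, H2BC12 and 214290_s_at calls were each lost under some alternatives, with adjusted p up to 0.0707, 0.0694 and 0.0526 (lowest 0.00106, 3.7e-05 and 1.65e-06). The probe set 214455_at, which had the largest fall in Oct4med BCCs, was only -0.22 ± 0.08 here (limma adjusted p = 0.0805). For 10 of the 49, every Oct4med array was below every Oct4hi array and these below every Oct4low array, against 1.24% of all probe sets. By the F-test across the 3 subsets 17 of the 49 differed (22% of all probe sets).

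Of the 4 variant probe sets 1, of H3.3, was lower in Oct4med BCCs and H2AX was not. H2AX, whose phosphorylated form marks DNA breaks and whose gene gives both stem-loop and polyadenylated mRNA, read 10.37, 10.38, 10.43 and 10.38 in Oct4low, 10.29 and 10.35 in Oct4med and 10.65, 10.79, 10.77 and 10.71 in Oct4hi arrays. The Oct4hi arrays stood apart above all others, and the Oct4med arrays lay just below the Oct4low ones. The rise in Oct4hi BCCs was 1.27-fold against Oct4low (0.34 ± 0.08, limma adjusted p = 0.00787) and 1.33-fold against Oct4med BCCs (0.41 ± 0.10, limma adjusted p = 0.0136). After quantile normalization neither passed (0.22 and 0.26), and the second was also lost with the replicate number as a block and without the first Oct4med array. Over the alternatives, adjusted p ran from 2.96e-06 to 0.07 for the first and from 6.05e-06 to 0.12 for the second. H2AX did not pass between Oct4med and Oct4low BCCs (-0.07, 95% interval -0.28 to 0.14).

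H3.3, the H3 variant laid down outside replication, is encoded by H3-3A and H3-3B. Its probe set 211998_at, named after its values were seen, carries both symbols and that of the microRNA MIR4738. It read 9.14, 9.18, 9.28 and 9.16 in Oct4low, 8.78 and 8.81 in Oct4med and 8.69, 8.72, 8.74 and 8.84 in Oct4hi arrays. The Oct4low arrays were above all others, with differences of -0.40 ± 0.10 for Oct4med (limma adjusted p = 0.0197) and -0.44 ± 0.08 for Oct4hi BCCs (limma adjusted p = 0.00159). The probe set of H3-3A alone gave -0.00 (95% interval -0.27 to 0.26) and -0.04 (-0.26 to 0.18), so it did not show this fall. H3-3B had no probe set of its own. Whether the probe sets disagree or the genes differ therefore cannot be told. H2AJ, an H2A variant, was below the median level at 3.57, 3.74 and 3.62. The second H4 probe set of the 14 genes, 214516_at, also rose in Oct4hi against Oct4low BCCs (0.36 ± 0.09, limma adjusted p = 0.0105), and like the H2AX call this was 1 of only 2 rises.

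Outside the rule, the centromeric H3 variant CENPA was at 9.09, 9.14 and 9.41 and rose in Oct4hi against Oct4low BCCs (0.32, limma adjusted p = 0.0108), as did MACROH2A1 (0.33, limma adjusted p = 0.0237). With H2AX these were the 3 of 5 measured variants that passed as higher (8.69% of all probe sets), and no variant gene with a probe set of its own passed between Oct4med and Oct4low BCCs. After quantile normalization 0 of the 5 passed, and all 3 are read by _x_at or _s_at probe sets.

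Of 25 genes that make and process histone mRNA 14 were measured, and between Oct4med and Oct4low BCCs 0 passed by limma or the methods' t-test (median 0.13). NPAT, the coactivator of histone gene transcription at S phase entry, was at 7.12, 7.35 and 7.39 and passed in no comparison. SLBP was not analysed here. In Oct4hi against Oct4low BCCs 5 rose and 1 fell (8.69% and 8.78% of all probe sets). The rises were CSTF2 (0.35), COIL (0.31), ZNF473 (0.28), ERI1 (0.28) and CPSF2 (0.28). ERI1, named after its values were seen, was below the median level at a mean of 3.12. SYMPK, a scaffold of the cleavage complex, fell by 0.40. CSTF2 and CPSF2 belong to the machinery that cuts mRNA 3′ ends, ZNF473 to the U7-dependent cleavage of histone mRNA, and COIL is the scaffold of Cajal bodies. The count of rises depended on the setting, with 1 after quantile normalization or with the replicate block, and 1 or 2 without any 1 Oct4low array or without Oct4hi array 1, 2 or 4. In Oct4hi against Oct4med BCCs CPSF2 (0.39) and YY1 (0.34) rose (7.52% of all probe sets). This count ranged from 0 to 3 over the alternatives, and it was 0 after quantile normalization, in the methods' t-test, with the replicate block, in a fit of only these subsets, and without the first Oct4med or the second Oct4hi array.

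Histone chaperones, which carry histones to and from DNA, were mixed. Of 14 measured of 25, SUPT16H (1.09) and CHAF1A (0.39) were higher and RBBP4 (-0.59) was lower in Oct4med than in Oct4low BCCs, beside 1.79% and 7.35% of all probe sets. SUPT16H is a subunit of FACT, and CHAF1A and RBBP4 belong to CAF-1, which lays down new H3 and H4 behind the replication fork. In Oct4hi against Oct4low BCCs 4 were higher (1 to 7 over the alternatives, and 8.69% of all probe sets). They were SUPT16H (0.93), its FACT partner SSRP1 (0.55), the CENPA chaperone HJURP (0.54) and ATRX (0.54). The H1 and H3 chaperone NASP was lower (-0.31, with 8.78% of all probe sets lower). Against Oct4med BCCs, HJURP (0.37) and the histone importer IPO4 (0.34) were higher in Oct4hi BCCs, and NASP (-0.39) and UBN2 (-0.38) were lower. Against Oct4low BCCs, the 2 chaperones higher in Oct4med BCCs came to 0 in the methods' t-test and without the second Oct4med array, to 1 without Oct4med array 1 or Oct4low array 2 or 3, and to 4 after quantile normalization. The 1 lower came to 0 in the methods' t-test and without the first Oct4med array.

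Genes of G1/S and DNA replication, the phase in which stem-loop histone mRNA is made, were counted too. Of 32 genes 22 were measured, and 7 rose and none fell in Oct4med against Oct4low BCCs (median 0.31), beside 1.79% and 7.35% of all probe sets. The largest rises were CCNE2 (cyclin E2, 0.51), TYMS (thymidylate synthase, 0.41), MCM10 (0.36) and RFC4 (0.35). The count was unstable, from 0 to 17 over the alternatives, with 15 after quantile normalization, 0 without the second Oct4med array, and 1 without the first, without the second Oct4low array or with the replicate number as a block. It was 3 without the fourth Oct4low array. In Oct4hi against Oct4low BCCs 10 rose and none fell (6 to 13 rises over the alternatives, and 8.69% and 8.78% of all probe sets), led by GINS1 (0.57), RFC3 (0.52), CDC6 (0.43) and RRM2 (0.43). In Oct4hi against Oct4med BCCs CCNE1 (-0.36), MCM2 (-0.36) and MCM10 (-0.36) fell and GINS1 (0.65) rose, beside 3.22% and 7.52% of all probe sets. The 3 falls ranged from 0 to 9 over the alternatives, with 9 after quantile normalization and 0 at a common median, with the replicate block, in a fit of only these subsets, or without either Oct4med array or the second Oct4hi array. Phase in the cell cycle was not measured, and its part in the histone differences was not tested.

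**Figure D4:**
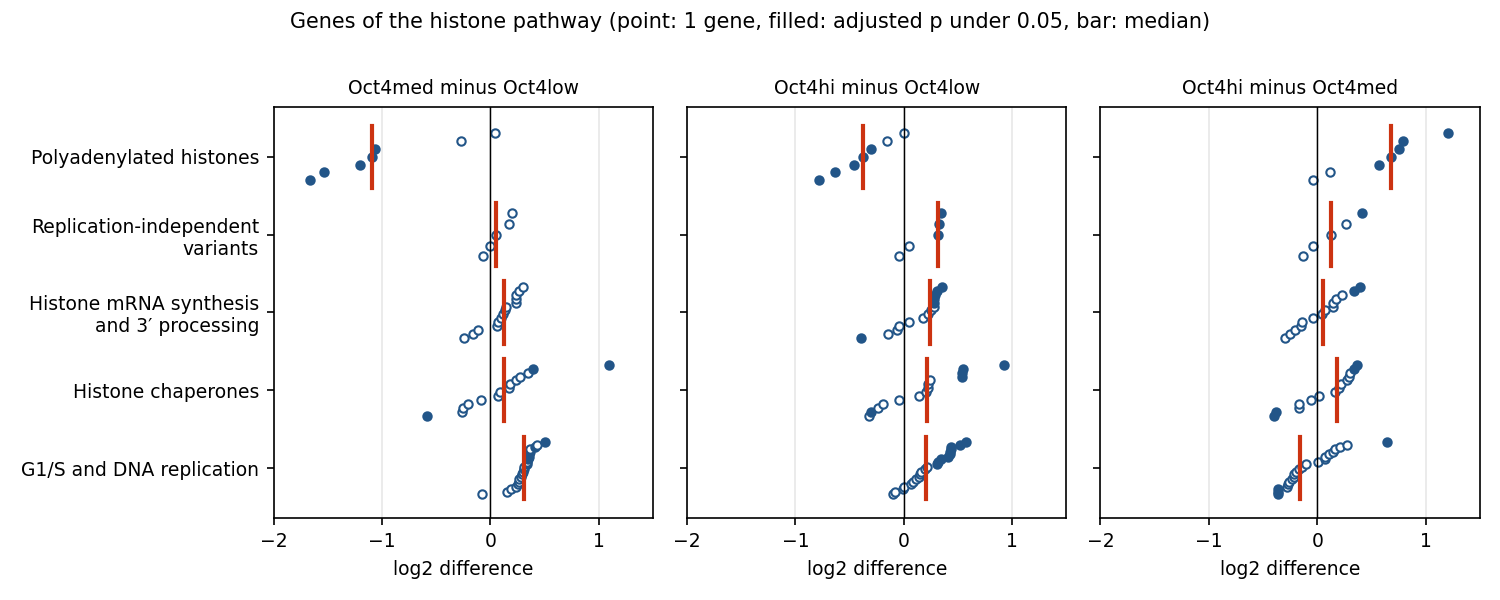
Difference between subsets (horizontal axis, log2) of the genes of 5 lists in the 3 comparisons. Points are genes, filled where the adjusted p was under 0.05, and bars are the medians of the lists. In Oct4med against Oct4low BCCs the polyadenylated histones have a median of -1.09 and the replication genes of 0.31.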

How the data were processed

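Total RNA of 10 sorted samples of MDA-MB-231 cells was labelled by 3′ IVT and hybridized to Affymetrix arrays, 1 per sample. Per the methods and the labels, the authors took background-corrected intensities to the log2 scale, applied RMA normalization and dropped features close to background or nearly constant. The deposited values are these log2 intensities for 25750 probe sets. Symbols came from the platform annotation, and positions and promoter windows from RefSeq (GRCh38.p14), which matched 63 of 63 genes by symbol (56 with a window).

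One mean per subset was fitted to all 10 arrays with limma 3.58.1 in R 4.3.3 (lmFit, eBayes), without a filter on low values. Moderated tests are two-sided, with Benjamini-Hochberg adjustment over all 25750 probe sets and 0.05 as the threshold, and the F-test used the same fit. The script was tested on simulated data. The members, gene lists and tests were chosen with earlier results of these data known. Named histone probe sets are those that passed with a log2 difference over 1, the one with the highest mean of each class and variant gene, and up to 6 that passed against most of their class. Of each list, up to 4 genes per comparison with the largest passing change were named, plus NPAT and CENPA. A gene was read from its single-symbol probe set with the highest mean.

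Alternatives were a filter on level (at or above the array median in at least 2 arrays) or on variation (1.2-fold in at least 2 arrays), 2 other scalings, weighting of arrays, a prior that follows intensity (robust), fitting just the pair of subsets compared, the methods' t-test without its random variance model, the replicate number as a block, tables without _x_at and _s_at probe sets or without members of several symbols, and leaving out each array. The number of arrays limits the precision, most for the 2 of Oct4med BCCs.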

Additional observations from a re-analysis of the deposited data

Results flagged for a closer look

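Among the 94 sets of 4 arrays examined for the named probe sets and the ribosomal controls, 2 had 1 array far from the other 3, fewer than the 1 in 20 that chance gives by this measure. In the Oct4low arrays, NPAT read 6.79 in the third array, against 7.21 to 7.26 in the others, a gap of 0.894 of the whole range. RRM2 read 11.68 in the fourth Oct4low array, against 11.74 to 11.75 in the others (0.865 of the range). No histone probe set was among them.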

How the results depend on the processing

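The 14 histone probe sets lower in Oct4med than in Oct4low BCCs numbered 13 to 15 when any 1 array was left out, the 8 lower in Oct4hi than in Oct4low BCCs 6 to 8, the 14 higher in Oct4hi than in Oct4med BCCs 11 to 16, and the 17 that differed among the subsets 16 to 20. Without _x_at and _s_at probe sets, which takes most of the members that passed out of the test, these counts were 4, 3, 3 and 6. Only members with a single symbol gave 9, 5 and 11 for the first, second and last. The 1 probe set higher in Oct4med than in Oct4low BCCs ranged from 0 to 1 over left-out arrays (0 without Oct4low array 1 or 3 or Oct4med array 1). It was 0 with the variation filter, array weights, the methods' t-test or the replicate block, and 2 with the intensity trend. The 2 higher in Oct4hi than in Oct4low BCCs ranged from 2 to 4 (4 without Oct4hi array 3). They were 4 with the level filter, array weights or the replicate block, 5 with the common median or the intensity trend, and 1 without _x_at and _s_at probe sets or with single symbols only. Apart from the settings that remove members, the cause was not tested.

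With the replicate number as a block the counts of lower probe sets moved by less than 1.5 times. Deviations from the subset means gave r from -0.18 to 0.17 over 8 pairs of arrays with the same number in different subsets. Pairs with different numbers gave -0.39 to 0.39 over 24. With only 2 Oct4med arrays, their deviations mirror each other. These values cannot tell whether arrays with the same number come from 1 experiment. Of 27 named histone differences that passed, 21 passed under every alternative in which they were tested, and none changed direction. The fit of only 2 subsets gives no F-test. Where 1 Oct4med array was left out, the other was taken to vary like the arrays of the remaining subsets.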
